A study of Mus musculus with 5 samples.

Results

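The genes described here are 35 mouse genes whose products are known mainly as proteins of the fluid and epithelium of the epididymis and vas deferens. They were taken by name, not by their values, from the 51912 gene IDs of the deposited tables, and all 35 were present. They fall into 10 families by role: a cysteine-rich secretory protein and a serpin, PATE proteins, lipocalins, ADAM proteins, ribonuclease A relatives, cystatins, WFDC proteins, SPAG11 proteins, sperm-binding proteins, and a set of sterol-carrier, enzyme and membrane proteins. Their RNA was measured in 5 libraries of total RNA from tissue labelled mouse dorsolateral prostate, from males aged 7 months. The 3 Ghr deletion mice carried Ghrflox/flox, ROSA26Cre-ERT2+/0 and SV40 C3(1) T-antigen+/0. The 2 tamoxifen controls carried Ghrflox/flox and SV40 C3(1) T-antigen+/0, and their labels name no Cre transgene. Both groups had received tamoxifen at 250 mg/kg daily for 5 days, and 1 month passed between the last dose and collection. Every mouse therefore carried the T-antigen transgene, which drives prostate tumours, and the floxed receptor gene. Cre-ERT2 was expressed from the ubiquitously active ROSA26 locus, so the deletion was not limited to a cell type, and the presence of Cre cannot be told apart from the loss of Ghr. The labels do not say whether each library came from a single animal or whether replicates shared a litter.

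Sperm leave the testis unable to fertilise and mature while they pass through the epididymis. Its epithelium secretes a different set of proteins in each segment under the control of androgens and of fluid from the testis. Cysteine-rich secretory proteins, lipocalins, small proteins of the Ly6 type such as the PATE family, protease inhibitors and defensin-like peptides coat the sperm or fill the lumen. The vas deferens carries sperm onward past the seminal vesicle and enters the urethra at the prostate, so that these organs lie against each other in the mouse. Some members are also made elsewhere. Sva, seminal vesicle autoantigen, and Pate4, which RefSeq also lists as Svs7, are known as seminal vesicle secretions, and Lcn2, Cst3, Npc2 and Ggt1 are made by many epithelia.

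The libraries differed in depth and in the organ markers they held. They carried 28536636, 37910327 and 33414067 counts in deletion replicates 1 to 3 and 47656212 and 13812454 in control replicates 1 and 2. Levels are given as CPM, counts scaled to a library size adjusted by the trimmed mean of M values, and the adjustment factors ran from 0.491 to 1.61 over the 5 libraries. Ghr, the targeted gene, stood at 8.12, 20.9 and 12.1 CPM in deletion libraries and 14.4 and 31.2 CPM in controls, so the groups overlapped (log2 fold change -0.73, SE 0.515, edgeR adjusted p = 0.995). A gene-level count includes exons outside the deleted part. The 7 seminal vesicle secretory genes Svs1 to Svs6 summed to 24.2%, 26.3% and 0.345% of counts in deletion libraries and 33.9% and 0.817% in controls. Akr1b7, an aldo-keto reductase that marks the vas deferens, stood at 3481, 3247 and 9.25 CPM in deletion libraries and 4.92 and 890 CPM in controls. Summed over 6 prostate markers, the level was 1.89 to 3.29 CPM in deletion libraries and 44.2 and 4.35 CPM in controls, and Pbsn, which encodes the prostate protein probasin, was at or below 0.250 CPM in 4 libraries and at 17.6 CPM in control replicate 1. The urothelial gene Upk3a was at 19.4 CPM in deletion replicate 3 and at 0 in the other libraries. Epithelial markers summed to 867 to 1890 CPM in deletion libraries and 891 and 1401 CPM in controls, smooth muscle markers to 1056 to 3988 and to 1525 and 2748 CPM, macrophage markers to 35.4 to 39.5 and to 51.4 and 82.1 CPM, and germ cell markers to 0.946 to 6.06 and to 1.24 and 1.93 CPM in the same groups. Most of the germ cell sum was Acrv1 in every library, and Prm1, Prm2, Tnp1, Tnp2 and Odf1 each had at most 10 counts. By the prostate markers, the labelled tissue was thus little represented in these libraries. In bulk tissue, fewer cells of a type and less RNA per cell cannot be told apart, and whether the organ content of a library set the members' levels was not tested.

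Of the 35 members, 18 held enough counts to be tested, 11 were detected with too few counts and 6 were at 0 in every library. On log2(CPM + 0.1), the larger of the ranges within a group exceeded the difference between group means for 16 of 18 tested members (88.9%). It did so for 91.3% of all tested genes. A range over libraries tends to be wider than a difference of means, so these shares do not compare variances. No tested member passed edgeR's quasi-likelihood test at an adjusted p under 0.05 (adjusted p from 0.985 to 0.999), where 0% of the 18615 genes tested passed. At an unadjusted p under 0.05 the same test marked 2 members, Serpina1f and Sva, against 4.92% of all genes tested. DESeq2 called the same 2 members, Serpina1f higher (adjusted p = 0.00327) and Sva lower (adjusted p = 0.00163) in deletion libraries, where it called 0.968% of the genes it gave an adjusted p. It gave none for 3 tested members, Pate3, Wfdc3 and Teddm1a. Fitted fold changes were positive for 9 tested members and negative for 9, with a median log2 fold change of 0.07 against 0.00 over all tested genes. The groups did not overlap in CPM for 3 tested members: Serpina1f was higher, and Sva and Npc2 were lower, in the deletion libraries. Over all tested genes, 19.6% did not overlap, 9.43% with the deletion libraries higher and 10.2% with them lower. In TPM, 5 tested members did not overlap (Pate2, Serpina1f, Wfdc10 and Ggt1 higher, Sva lower), against 5.68% of all tested genes. The largest difference between libraries of the same group had a median of 2.77 on the log2 scale for tested members and 1.08 for all tested genes.

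**Figure D1:**
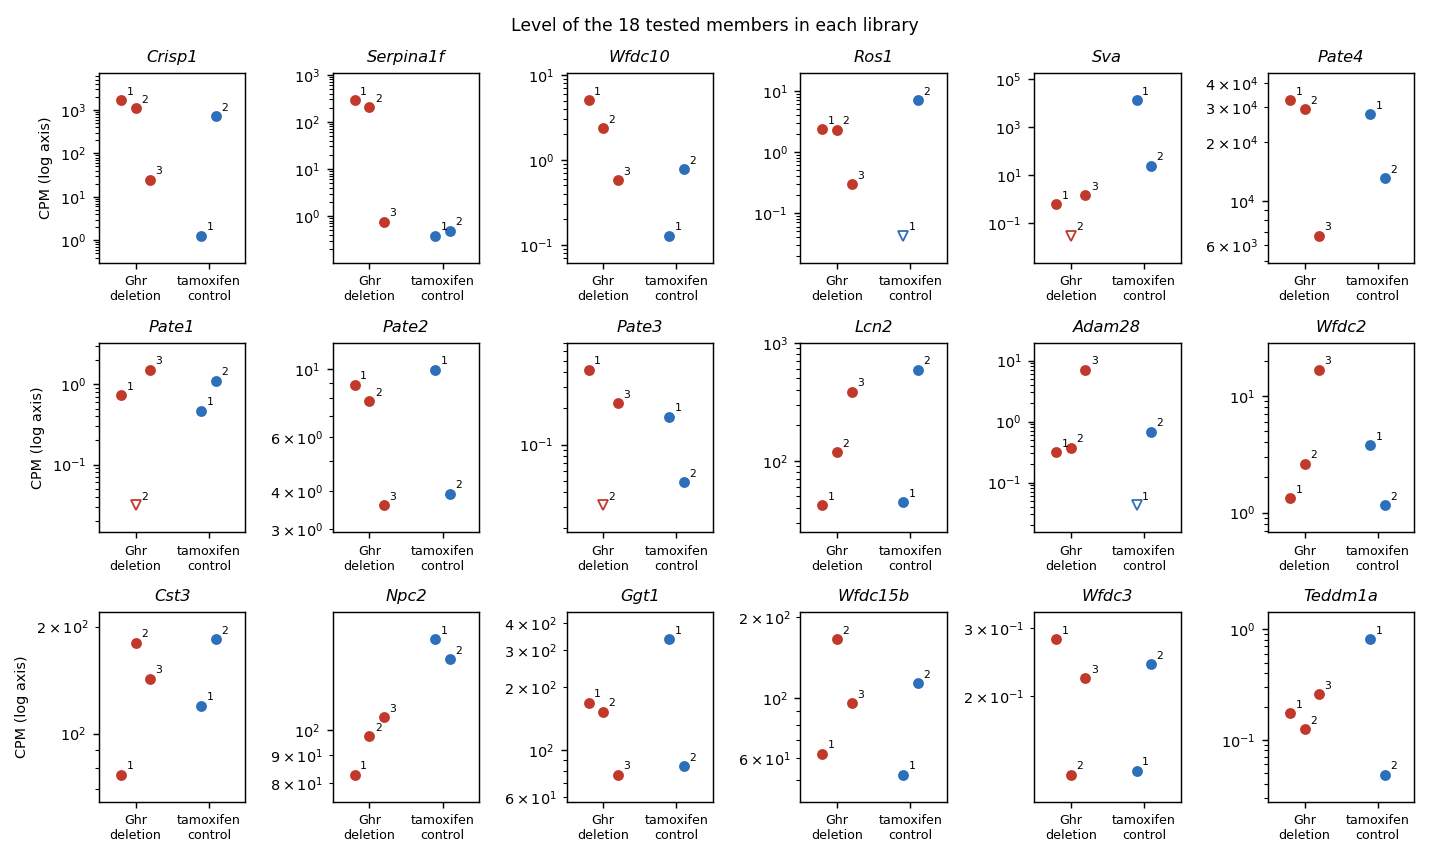
Level of each of the 18 tested members in every library, in CPM on a log axis, with the 3 deletion libraries left of the 2 controls and a count of 0 drawn as an open triangle at the level of 1 count. Pate4 stood highest in each library, at 6702 CPM or more, while Crisp1, Serpina1f and Sva differed by orders of magnitude between libraries of the same group.

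**Figure D2:**
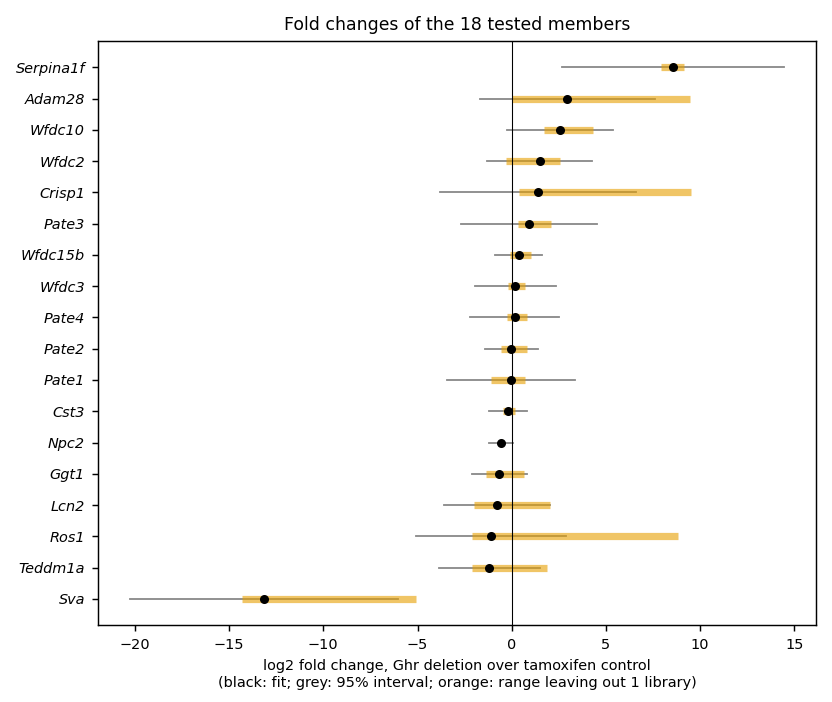
Log2 fold change, deletion over control, of each tested member, with its 95% interval in grey and the range over fits that each leave out 1 library in orange. The intervals of Serpina1f and Sva lie away from 0, and those of the other 16 tested members include it.

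Crisp1, Serpina1f, Wfdc10 and Ros1 include the members known best from the epididymal epithelium. Crisp1 encodes a cysteine-rich secretory protein that binds the sperm surface during maturation. It lies on chromosome 17 from 40293758 to 40319207, on the minus strand of GRCm38. Serpina1f, also called epserin, encodes an epididymal member of the serpin family, whose members inhibit serine proteases. It lies on chromosome 12 from 103688044 to 103695529, also on the minus strand. Their promoter sequences are shown because Crisp1 and Serpina1f were the most abundant of these 4 genes. The sequences cover the 250 bases before the RefSeq start on the gene's own strand (GRCm38.p6), in lower case, and capitals would mark the androgen response element half-site AGAACA. The Crisp1 window is chr17:40319208-40319457 and the Serpina1f window is chr12:103695530-103695779.
Crisp1: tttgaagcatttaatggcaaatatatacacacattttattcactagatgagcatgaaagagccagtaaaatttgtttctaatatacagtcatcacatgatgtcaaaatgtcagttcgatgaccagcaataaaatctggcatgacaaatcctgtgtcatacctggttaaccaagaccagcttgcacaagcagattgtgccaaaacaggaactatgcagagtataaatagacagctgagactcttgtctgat
Serpina1f: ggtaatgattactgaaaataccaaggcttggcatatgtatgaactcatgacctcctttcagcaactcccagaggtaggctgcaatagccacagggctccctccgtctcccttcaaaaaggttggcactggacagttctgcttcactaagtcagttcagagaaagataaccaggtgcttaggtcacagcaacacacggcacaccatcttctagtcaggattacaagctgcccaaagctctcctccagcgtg
Neither window holds AGAACA or its reverse complement TGTTCT. The Crisp1 window holds the letters TATAAA 1 time and the Serpina1f window does not.

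Crisp1 had 1663, 1108 and 25.0 CPM in deletion libraries and 1.28 and 711 CPM in controls. Deletion replicates 1 and 2 and control replicate 2 were high and the other 2 libraries low, so the groups overlapped and the highest library was 1297-fold above the lowest. The log2 fold change was 1.39 (95% interval -3.81 to 6.58, SE 2.16, edgeR adjusted p = 0.995). Without control replicate 2 it was 9.50, and without control replicate 1 it was 0.39.

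Serpina1f had 288, 204 and 0.760 CPM in deletion libraries and 0.385 and 0.484 CPM in controls, from 8211, 6513 and 41 counts and from 9 and 10 counts. Every deletion library was above both controls, yet deletion replicate 3 lay far closer to the controls than to the other deletion libraries. As a percentage of all counts, its 95% Wilson interval for counting error was 9.05e-05 to 1.66e-04. That of control replicate 2 was 3.93e-05 to 1.33e-04. These intervals overlapped, so counting error alone left the order of these libraries uncertain. The log2 fold change was 8.55 (95% interval 2.67 to 14.43, SE 2.45), with an edgeR p of 0.0114 and an adjusted p of 0.991. Without deletion replicate 3 the gene passed the test (log2 fold change 9.12, edgeR adjusted p = 0.0145), as did 0.0114% of all genes tested in that fit, and without both deletion replicate 3 and control replicate 1 its edgeR adjusted p was 4.84e-04, in a fit that called 0.459% of genes. Deletion replicate 3 was the deletion library whose Serpina1f level lay nearest the controls. Leaving it out removes the discordant value of the tested gene itself, so neither adjusted p without that library adds support. The fit without both libraries also rested on a lone control. Serpina1f had the higher level in the deletion group in all 13 alternative fits. Its groups did not overlap in CPM or in TPM, so this sign was given beforehand and adds no support.

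Crisp1 and Serpina1f did not keep a fixed proportion. Crisp1 held 5.78, 5.44 and 32.8 counts per Serpina1f count in deletion libraries and 3.33 and 1470.5 in controls. In control replicate 2, Crisp1 and Akr1b7 were high, at 711 and 890 CPM, and Serpina1f was at 0.484 CPM. Akr1b7 held 2.09, 2.93 and 0.371 counts per Crisp1 count in deletion libraries and 3.83 and 1.25 in controls.

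Wfdc10, a WAP four-disulfide core protein of the type that inhibits proteases, had 5.04, 2.38 and 0.575 CPM in deletion libraries and 0.128 and 0.774 CPM in controls. Its libraries stood in the same order as those of Crisp1 and Akr1b7, from deletion replicate 1 down to deletion replicate 2, control replicate 2, deletion replicate 3 and control replicate 1. The groups overlapped (log2 fold change 2.56, SE 1.17, edgeR adjusted p = 0.991). Wfdc10 overlaps Wfdc9 on the opposite strand, which held at most 4 counts. Ros1 encodes a receptor tyrosine kinase that mice need for the first segment of the epididymis to differentiate. It had 2.35, 2.32 and 0.297 CPM in deletion libraries and 0 and 7.01 CPM in controls, so control replicate 2 was the highest and control replicate 1 the lowest. Its log2 fold change was -1.09 (SE 1.66, edgeR adjusted p = 0.995), and its sign turned to 8.83 without control replicate 2.

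**Figure D3:**
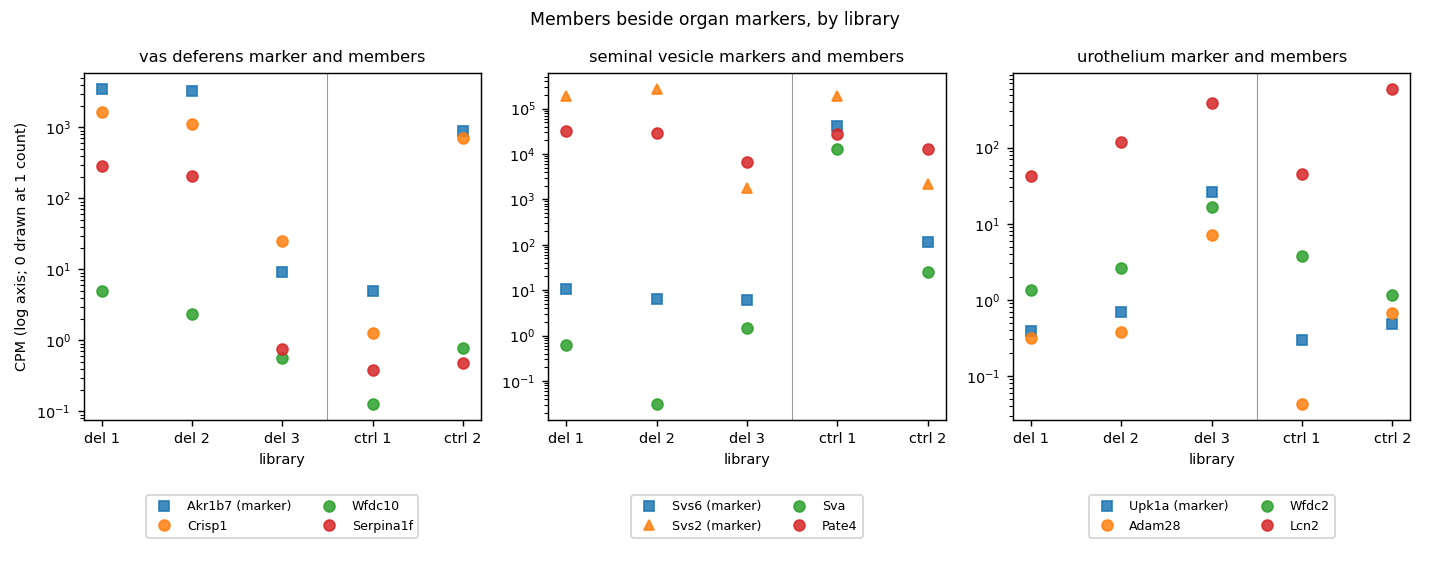
Members beside organ markers in each library, in CPM on a log axis, with deletion libraries left of controls: Crisp1, Wfdc10 and Serpina1f with Akr1b7 (left), Sva and Pate4 with Svs6 and Svs2 (middle), and Lcn2, Adam28 and Wfdc2 with Upk1a (right). A 0 is drawn at the level of 1 count. Crisp1 and Wfdc10 follow the order of Akr1b7, Sva follows Svs6 in being highest in control replicate 1, and Adam28, Wfdc2 and Upk1a are all highest in deletion replicate 3.

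Sva and Pate4 are known as abundant seminal vesicle products. Sva encodes a secreted protein that coats mouse sperm and lowers their motility. It lies on chromosome 6 from 42038394 to 42042851, on the plus strand of GRCm38. Its promoter is shown because Sva had the largest negative fold change among the tested members. The window of 250 bases before the RefSeq start is chr6:42038144-42038393, with AGAACA in capitals.
Sva: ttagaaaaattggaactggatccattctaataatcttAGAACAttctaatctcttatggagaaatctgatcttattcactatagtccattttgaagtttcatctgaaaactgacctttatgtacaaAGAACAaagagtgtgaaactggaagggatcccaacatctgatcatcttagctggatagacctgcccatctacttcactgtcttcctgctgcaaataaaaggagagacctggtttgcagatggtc
The window holds AGAACA 2 times on the gene's strand. The half-site, read as AGAACA or TGTTCT, was present in 16.1% of 32851 RefSeq promoter windows of this length, and in 10 of the 33 windows of 28 members. The paired androgen response element, a half-site followed after a spacer by its reverse complement, was in 0.00913% of all windows and in 0 of the members' windows. TATAAA, or TTTATA, was in 12.4% of all windows and in 6 of the members'. A match describes letters and does not show that a factor binds there.

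Sva had 0.630, 0 and 1.48 CPM in deletion libraries and 12974 and 24.6 CPM in controls, from 18, 0 and 80 counts and from 303504 and 509 counts. Both controls were above every deletion library, and control replicate 1 was far above control replicate 2. In control replicate 1 the gene took 0.637% of all counts (95% Wilson interval 0.635% to 0.639%, for counting error only). The log2 fold change was -13.13 (95% interval -20.24 to -6.01, SE 2.96), with an edgeR p of 0.00366 and an adjusted p of 0.985. It was -5.09 without control replicate 1. The sign was the same in all 13 alternative fits, which adds no support because the groups of Sva did not overlap in CPM or in TPM.

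The seminal vesicle genes themselves did not move as a block, and Sva stood beside a subset of them. Svs6 had 10.8, 6.48 and 5.92 CPM in deletion libraries and 40975 and 116 CPM in controls, so that its groups did not overlap either. Svs3a and Svs3b were likewise at or below 3.12 CPM in every deletion library and at or above 46.6 CPM in controls. Svs1 had 6.20, 0.0626 and 9.63 CPM in deletion libraries and 78170 and 171 CPM in controls, and Svs4 was also lower in every deletion library. DESeq2 called Svs1, Svs3a, Svs3b, Svs4 and Svs6 lower, with adjusted p-values of 3.4e-04 or less, but not Svs2 or Svs5. EdgeR called none of these genes, and DESeq2 called 0.968% of the genes it gave an adjusted p. Each Svs gene called by DESeq2 was far higher in control replicate 1 than in control replicate 2. For Svs4, control replicate 2 at 1924 CPM was close to deletion replicate 2 at 1717 CPM. Svs2 had 191401, 269948 and 1751 CPM in deletion libraries and 193312 and 2211 CPM in controls, high in 3 libraries that include both groups. Svs6 held 17.2 and 3.99 counts per Sva count in deletion replicates 1 and 3 and 3.16 and 4.70 in controls, while deletion replicate 2 had no Sva count. The part of library content in the Sva difference was not tested.

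Pate4 was the most abundant member in every library by TPM, the authors' measure that also divides by gene length. It encodes a small secreted protein of the Ly6 type, on chromosome 9 from 35607093 to 35611941 on the minus strand. It had 32580.5, 29317 and 6702 CPM in deletion libraries and 27647 and 13077 CPM in controls. Its share of all counts was 3.26%, 2.47% and 1.08% in deletion libraries and 1.36% and 1.96% in controls. The libraries differed by at most 4.86-fold, the groups overlapped and the log2 fold change was 0.17 (95% interval -2.20 to 2.53, SE 0.988, edgeR adjusted p = 0.999). Svs2 held 5.87, 9.21 and 0.261 counts per Pate4 count in deletion libraries and 6.99 and 0.169 in controls, so Svs2 exceeded Pate4 in 3 libraries and was below it in deletion replicate 3 and control replicate 2.

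The other PATE members were low. Pate2 had 8.86, 7.86 and 3.60 CPM in deletion libraries and 9.92 and 3.92 CPM in controls (log2 fold change -0.03, SE 0.589, edgeR adjusted p = 0.999). Its gene model spans Pate1, Pate3 and Pate4 on the opposite strand, and no source used here states the strand setting of the counting, so its counts are uncertain. Pate2 held 2.72, 2.68 and 5.36 counts per 10000 Pate4 counts in deletion libraries and 3.58 and 3.00 in controls. Pate1 had 0.735, 0 and 1.52 CPM in deletion libraries and 0.470 and 1.11 CPM in controls. Pate3 had 0.420, 0 and 0.223 CPM in deletion libraries and 0.171 and 0.0484 CPM in controls. Both overlapped between groups, with log2 fold changes of -0.05 (SE 1.42) for Pate1 and 0.91 (SE 1.52) for Pate3.

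Lcn2 was highest in control replicate 2, and Adam28 and Wfdc2 in deletion replicate 3. Lcn2 encodes lipocalin 2, which binds bacterial siderophores and is made by neutrophils and by stressed epithelia. It had 42.2, 118 and 387 CPM in deletion libraries and 44.5 and 592 CPM in controls, so each group held low and high libraries. The log2 fold change was -0.80 (95% interval -3.62 to 2.01, SE 1.17, edgeR adjusted p = 0.995), and it was 2.03 without control replicate 2. A list of 7 neutrophil markers summed to 22.8, 40.3 and 151 CPM in deletion libraries and 3.55 and 89.1 CPM in controls. Nearly all of that sum was lactoferrin (Ltf), which glandular epithelia also make, and the neutrophil elastase gene Elane was at 0 in every library. The part of neutrophils in Lcn2 was not tested.

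Adam28, which encodes a membrane-bound metalloprotease of the ADAM family, had 0.315, 0.376 and 7.05 CPM in deletion libraries and 0 and 0.677 CPM in controls. Wfdc2, which encodes the WAP-domain protein HE4 of epididymal and airway epithelium, had 1.33, 2.63 and 16.7 CPM in deletion libraries and 3.76 and 1.16 CPM in controls. Deletion replicate 3 was the highest library for both genes. Upk1a, a uroplakin of the bladder and urethral lining, stood at 0.385, 0.689 and 26.0 CPM in deletion libraries and 0.299 and 0.484 CPM in controls. The log2 fold changes of Adam28 and Wfdc2 were 2.95 (SE 1.94) and 1.48 (SE 1.16), with edgeR adjusted p-values of 0.995 and 0.995. Without deletion replicate 3 they were 0.03 for Adam28 and -0.33 for Wfdc2. Summed over 5 urothelial markers, the level was 47.0, 68.3 and 164 CPM in deletion libraries and 79.9 and 25.2 CPM in controls. Most of that sum was Upk1b, at 45.9, 67.1 and 97.7 CPM in deletion libraries and 77.2 and 23.8 CPM in controls. Upk1a, Upk2, Upk3a and Upk3b were each at or below 2.39 CPM outside deletion replicate 3. The part of urothelium in the Adam28 and Wfdc2 levels was not tested.

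Cst3, Npc2, Ggt1 and Wfdc15b were present at more than 50 CPM in every library. Npc2, which encodes a small sterol-binding protein of lysosomes and of epididymal fluid, had 82.8, 97.4 and 106 CPM in deletion libraries and 146 and 135 CPM in controls. It averaged 95.2 ± 11.5 CPM in deletion libraries (SD, n = 3) and 141 ± 8.37 CPM in controls (SD, n = 2), and the groups did not overlap. Its log2 fold change was -0.56 (95% interval -1.19 to 0.07, SE 0.262, edgeR adjusted p = 0.991). In TPM the groups of Npc2 overlapped and the log2 fold change turned to 0.51 with a pseudocount of 1, a scale on which the median over all tested genes was 0.54 and not near 0.

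Cst3, which encodes cystatin C, an inhibitor of cysteine proteases, had 76.7, 180 and 143 CPM in deletion libraries and 120 and 184 CPM in controls. Its log2 fold change was -0.19 (95% interval -1.20 to 0.82, SE 0.424), and the groups overlapped. Wfdc15b, a further WAP-domain protein, had 62.4, 166 and 96.1 CPM in deletion libraries and 52.2 and 114 CPM in controls (log2 fold change 0.38, SE 0.519). Ggt1, which encodes gamma-glutamyltransferase 1, an enzyme of glutathione breakdown at the cell surface, had 168.4, 153 and 76.7 CPM in deletion libraries and 336 and 83.9 CPM in controls. Its groups overlapped, with control replicate 1 the highest library (log2 fold change -0.66, SE 0.615). The sign of the fold change turned in TPM for Cst3 and Ggt1, and in the fit over all 5 libraries that used the filter on low counts, no edgeR adjusted p of Cst3, Npc2, Ggt1 or Wfdc15b was below 0.985.

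Wfdc3 and Teddm1a were at the edge of detection. Wfdc3 had 0.125 to 0.280 CPM in deletion libraries and 0.128 and 0.242 CPM in controls (log2 fold change 0.18, SE 0.896). Teddm1a, named as a transmembrane epididymal protein, had 0.125 to 0.260 CPM in deletion libraries and 0.812 and 0.0484 CPM in controls (log2 fold change -1.18, SE 1.11). It overlaps Teddm2 and the uncharacterised model Gm38352, both on the opposite strand. A count of 3 stood for 0.0556 to 0.105 CPM in deletion libraries and 0.128 and 0.145 CPM in controls.

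The lipocalins other than Lcn2, the SPAG11 genes, Bsph1 and Bsph2 were at or near 0, as were the ribonuclease genes apart from Rnase12 in deletion replicate 1. Lcn9, Lcn10, Cst12, Spag11a, Bsph1 and Bsph2 were at 0 counts in all 5 libraries, which allows at most 0.145 CPM in the library of lowest adjusted size. Lcn5, which encodes the retinoic acid-binding lipocalin of the epididymis, had 2, 1 and 0 counts in deletion libraries and 0 in both controls. Lcn6 and Lcn8 had 1 count in all, each in a deletion library. Lcn12 had 0, 6 and 0 counts in deletion libraries and 1 and 2 counts in controls. Adam7, an ADAM protein of the epididymal epithelium, had 5, 2 and 0 counts in deletion libraries and 0 and 2 counts in controls. Rnase12 reached 42 counts in deletion replicate 1, with 4 and 0 counts in the other deletion libraries and 0 and 3 counts in controls. Rnase9, Rnase10, Cst8, Cst11 and Spag11b had at most 6 counts in any library. The 6 lipocalins other than Lcn2 lie together on chromosome 2 over 334.7 kb (GRCm38, 25490845 to 25825537), and none of them passed the filter on low counts.

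**Figure D4:**
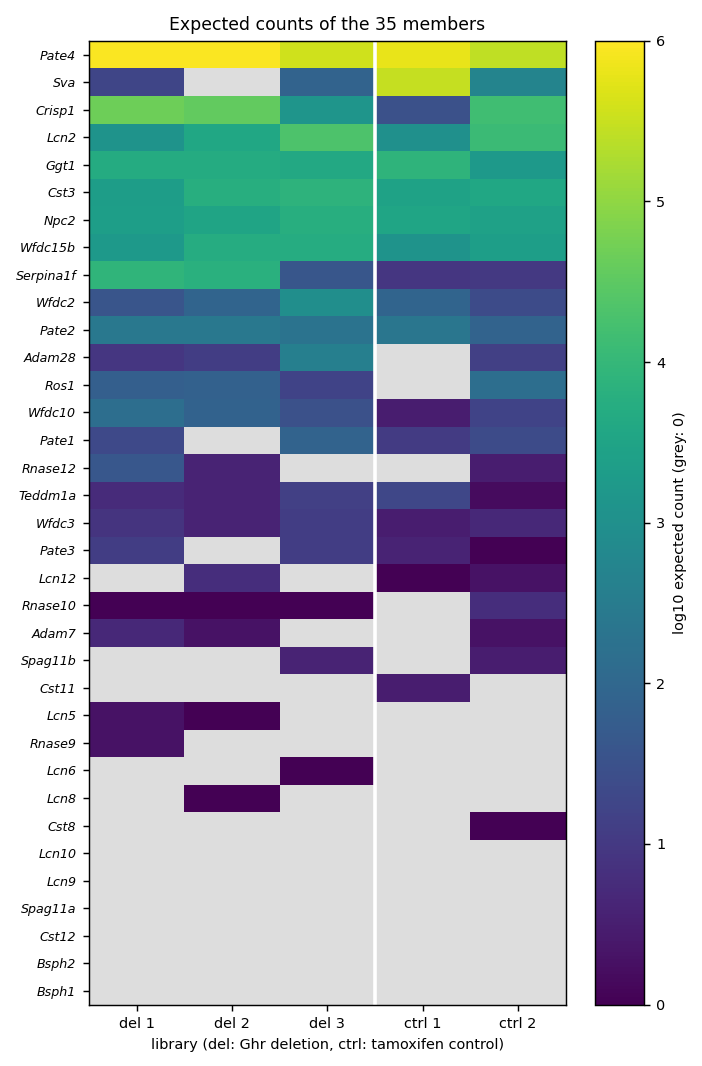
Rounded expected counts of all 35 members in each library on a log colour scale, with the 3 deletion libraries left of the 2 controls. Lcn9, Lcn10, Cst12, Spag11a, Bsph1 and Bsph2 are at 0 in every library, and Pate4 holds at least 270354 counts in each.

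The order of members within a library differed between libraries. By TPM, Pate4 came first in all 5, at 20292, 20998 and 14454 TPM in deletion libraries and 5115 and 15280 TPM in controls. Crisp1 came second in deletion replicates 1 and 2, at 738 and 568 TPM, and Lcn2 came second in deletion replicate 3 at 1009 TPM. Sva came second in control replicate 1 at 4669 TPM, and Lcn2 came second in control replicate 2 at 841 TPM. Members with any count numbered 23, 21 and 21 in deletion libraries and 18 and 24 in controls. Together the 35 members took 3.50%, 2.64% and 1.22% of counts in deletion libraries and 2.03% and 2.24% in controls. Deletion replicate 1 was the highest library for 6 of the 18 tested members, against 13.1% of all tested genes. Deletion replicate 2 was highest for 1, against 26.9%, and deletion replicate 3 for 3, against 18.2%. Control replicate 1 was highest for 5, against 25.5%, and control replicate 2 for 3, against 16.3%.

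The 4 WFDC members lie on chromosome 2 in 531.5 kb (164214454 to 164745931) that also hold Svs2 to Svs6. Neighbours there differed in their order over libraries. Wfdc15b, next to Svs2, lay between 52.2 and 166 CPM in all libraries, while Svs2 lay between 1751 and 269948 CPM. Wfdc2 was highest in deletion replicate 3, at 16.7 CPM, and Wfdc10 in deletion replicate 1, at 5.04 CPM. Svs4 had 712, 1717 and 160 CPM in deletion libraries and 171073 and 1924 CPM in controls. Svs5 had 49406, 40101 and 204 CPM in deletion libraries and 164782 and 934 CPM in controls. Eppin, Wfdc9 and Spint4, which lie among them, had at most 0.128 CPM in any library.

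Other genes known from the epididymis were counted from a second list of 36 names, of which 26 matched and 10 PATE names did not. Of the 26, 6 passed the filter on low counts, none of them was called by edgeR or by DESeq2, and the edgeR fold change was positive for 5 and negative for 1. In CPM, Ces5a and Defb15 were higher in every deletion library than in either control, as were 9.43% of all genes tested, and in TPM the groups of both overlapped. Defb42, a beta-defensin, had 268, 317 and 2.08 CPM in deletion libraries and 180 and 7.88 CPM in controls (log2 fold change 1.06, SE 1.80). Ces5a, an epididymal carboxylesterase, had 6.16, 16.2 and 8.83 CPM in deletion libraries and 0.427 and 4.50 CPM in controls (log2 fold change 2.08, SE 0.973). The median log2 fold change of the 6 was 2.49, against 0.00 over all tested genes, with Mfge8 the gene at a negative value, -0.38. Genes could pass the filter on low counts through the deletion libraries alone. This median and the count of signs therefore do not show a shift of epididymal genes. The other tested genes were Defb28, Defb15 and Cuzd1. Defb15 had 2.28, 0.250 and 0.334 CPM in deletion libraries and 0.0427 and 0.193 CPM in controls. Defb28 had 3.05, 3.22 and 0.241 CPM in deletion libraries and 0 and 0.580 CPM in controls. Cuzd1 had 2.87, 9.14 and 0.352 CPM in deletion libraries and 0.385 and 0.677 CPM in controls. The groups of Defb28 and Cuzd1 overlapped. The remaining 20 had at most 6.05 expected counts in a library, and 10 of them were at 0 in all, with Crisp4 and Defb41 among these. Gpx5, the secreted glutathione peroxidase that marks the caput epididymis, had at most 6 counts.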

How the data were processed

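The labels' protocols give flash-frozen tissue, a NucleoSpin RNA kit and a stranded total RNA library kit (TruSeq). Build GRCm38 and the tools RSEM 1.3.0, STAR 2.5.3a and bcl2fastq 2.20.422 come from the submitters' processing notes. No source used here states the annotation release or the strand setting. Per the file headers, the authors deposited unnormalized RSEM expected counts and, as a second column, TPM, which take account of gene length and sum to the same total in each library. Groups and replicate numbers came from sample titles. Expected counts were rounded. The fit used every library and edgeR version 4.0.16, under R version 4.3.3 with limma version 3.58.1. Its steps were filterByExpr, TMM and the robust quasi-likelihood test with group as the only term. Benjamini-Hochberg adjustment ran over all tested genes. The filter needs the level of about 10 counts in a library of median depth, in at least 2 libraries of any group. A gene can therefore pass through the deletion libraries alone. The filter left 18615 genes. A member counts as tested where it passed that filter. The SE of a log2 fold change is its size divided by the square root of the F statistic. CPM were counts scaled to TMM-adjusted library size. DESeq2 1.42.0, limma-voom, other size factors, no filter, a replicate block, left-out libraries and limma on log2(TPM + 1) and log2(TPM + 0.1) were alternatives. Gene positions came from GENCODE release M21, which held 51719 of the 51912 gene IDs, and promoters from RefSeq (GRCm38.p6), which had 28 of the 35 members and 7 without an entry. No symbol was found for 279 IDs. Members with at least 100 counts over the libraries or that passed the filter are given in full, the others by counts; of other epididymal genes, the 6 of highest mean TPM are named. The members, lists and alternatives were chosen with earlier results of these data known. Markers of other organs are given as summed levels. On 3 simulated sets of 18615 genes the share called was 0.529% at a 2-fold change, 43.5% at 8-fold and 84.5% at 32-fold. The simulated counts varied independently by gene around a common profile, without the differences in organ markers that these libraries share across genes. These shares therefore do not tell what could be detected in the real libraries. Nothing in the labels states that replicates were separate cultures or litters, so p-values measure the spread between these libraries, and intervals on shares cover counting error only.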

Additional observations from a re-analysis of the deposited data

How the results depend on the processing

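Over all tested genes edgeR called 0 genes, and it called 0 with median-of-ratios size factors and with no filter on low counts. Limma-voom called 0 genes. DESeq2 called 166 genes and 2 members. At an unadjusted p under 0.05, edgeR marked 915 genes. Limma on TPM called 11 genes and 1 member with a pseudocount of 1, and 12 genes and 2 members with 0.1, and 5 members' groups did not overlap in TPM. The median log2 fold change of members was then 0.73 and 0.93, and that of all tested genes 0.54 and 0.91. It was 0.18 with no filter on low counts. Leaving out 1 library at a time gave 0 to 48 called genes, 0 to 1 called members, 3 to 11 members without overlap and a median of -0.26 to 0.69. The 11 of 19 came without control replicate 2, where 56.2% of all tested genes did not overlap, and without control replicate 1 it was 8 of 19, against 43.2%. The 48 came without control replicate 2, and the called member, Serpina1f, without deletion replicate 3. Without control replicate 1 and deletion replicate 3 together, 85 genes and 1 member were called and 14 of 17 members did not overlap, against 67.8% of all tested genes. Whether replicate numbers pair the libraries could not be settled. Same-numbered libraries correlated at 0.131 and -0.136 in their deviations from the group means. With 2 controls, the control deviations are mirror images of each other, so these values are not separate checks. With a replicate block 8 genes and 2 members, Serpina1f and Sva, were called, with a median of 0.18. Replicate 3 exists only in the deletion group, so its block term took up that library. Deletion replicate 3 then did not inform the group difference in that fit. That library held the lowest Serpina1f and the highest Sva level of the deletion group, in both cases the level nearest the controls. Calls of Serpina1f or Sva in fits without its information therefore add no support. Of the 18 tested members, 5 kept the sign of their fold change under each alternative that tested them: Crisp1, Serpina1f, Wfdc10 and Sva in 13, and Pate3 in 10, since it did not pass the filter on low counts in the other 3. For Serpina1f and Sva a kept sign follows from groups that did not overlap in CPM or in TPM. In TPM with a pseudocount of 1 and then 0.1, the log2 fold change turned to 0.72 and 0.96 for Pate1, 0.83 and 1.01 for Pate2, 0.65 and 0.69 for Lcn2, 0.83 and 0.84 for Cst3, 0.51 and 0.55 for Npc2, 0.13 and 0.47 for Teddm1a and 0.70 and 0.71 for Ggt1. Without control replicate 1 and deletion replicate 3, it turned to 1.09 for Pate2, -0.96 for Adam28, -0.26 for Wfdc3, -0.0066 for Wfdc15b and 0.93 for Ggt1. Under the block it turned to 0.42 for Pate2, -0.18 for Wfdc2 and 1.46 for Ros1, and with limma-voom to 1.62 for Ros1. Leaving out 1 library at a time gave -1.12 to 0.68 for Pate1, -0.55 to 0.79 for Pate2, -0.28 to 0.81 for Pate4, -2.01 to 2.03 for Lcn2, -0.47 to 0.15 for Cst3, -0.33 to 2.56 for Wfdc2, -0.21 to 0.69 for Wfdc3, -0.080 to 1.05 for Wfdc15b, -2.09 to 1.89 for Teddm1a, -2.09 to 8.83 for Ros1 and -1.34 to 0.66 for Ggt1. Where 1 control was left out, the lone control was assumed to vary like the deletion libraries. The cause of these changes was not tested. With 2 controls, the spread between libraries limits what can be detected.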
